A study of Mus musculus with 6 samples.

Results

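The genes Cd5, Cd6, Cd2, Thy1, Cd28 and Icos encode surface receptors by which conventional T cells tune and support signalling through the T cell receptor. They were found by gene symbol in the deposited count table, and all 6 were present among its 55487 genes and among the 14722 genes that passed the filter on low counts. They were chosen with earlier results of these libraries in view, from their levels in the 2 groups, so their levels and fold changes are a description here and carry no test. Genes outside this set were tested in the fit over the whole table. The lists of such genes described below were also chosen with earlier results in view, so counts of calls in them are descriptions.

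The libraries were made from total RNA of live cells, sorted from the epithelium of the small intestine. The mice were C57BL/6J, of wild-type genotype. B220+CD3ε+CD45+ cells, labelled X cells, gave 3 libraries, and B220−CD3ε+CD45+ cells, labelled T cells, gave 3. All 6 libraries share the wild-type genotype and the gates for CD3ε, a T cell receptor subunit, and CD45, the pan-leukocyte phosphatase. B220 is a CD45 form best known from B cells. Neither a treatment nor an age is given for them, and the labels do not say whether libraries come from different mice. The p-values therefore measure only the spread between libraries, which may be partly technical.

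Gene counts summed to between 11810859 and 39591312 per B220+ library and between 11320363 and 18773165 per B220− library. Levels are given as CPM, counts scaled to a common library size after correction for composition. Of the CD3 genes Cd3e, Cd3d and Cd3g were not called (Cd3e 1361 ± 56.4 CPM in B220+ libraries, 1214 ± 13.7 CPM in B220− libraries, SD, n = 3 each), and Cd247, the ζ chain, was called lower (166 CPM in B220+, 236 CPM in B220−). The γδ receptor genes Trdc (995 CPM in B220+, 783 CPM in B220−) and Trgc1 (890.2 CPM in B220+, 526 CPM in B220−) were called higher by edgeR, Trdc not without B220− replicate 3 (adjusted p = 0.0524). The αβ receptor genes Trac (486 CPM in B220+, 484 CPM in B220−), Trbc1 (368 and 341 CPM) and Trbc2 (566 and 581 CPM) were not called (edgeR adjusted p = 0.980, 0.493 and 0.845). The summed level of 11 B cell and plasma cell markers was 40.04 to 59.6 CPM in B220+ and 46.3 to 128 CPM in B220− libraries, and 1 of the 4 tested was called, Sdc1, lower (not called without B220+ replicate 1 or 2 or B220− replicate 3). Nearly all of these counts were Cd79b (31.7 ± 1.80 CPM in B220+ libraries, 27.4 ± 4.37 CPM in B220− libraries) and the plasma cell gene Jchain (12.02 ± 9.67 CPM in B220+ libraries, 48.7 ± 44.1 CPM in B220− libraries), neither of them called by edgeR. Ms4a1, Cd79a, Pax5 and Ebf1 averaged under 1 CPM in both groups. The 10 fibroblast and endothelial markers, a concern for Thy1, summed to 34.5 to 40.9 CPM in B220+ and 31.8 to 34.6 CPM in B220− libraries, with Lum and Kdr at 0 counts and 1 of 3 tested called, Pdgfrb, lower. The 9 epithelial markers summed to 337 to 384 CPM in B220+ and 309 to 374 CPM in B220− libraries. None of them was called by edgeR. Epcam (75.4 ± 6.20 CPM in B220+ libraries, 35.9 ± 14.7 CPM in B220− libraries) had an adjusted p of 0.170 by edgeR, but was called higher by DESeq2 (0.0359) and by edgeR without B220− replicate 1 (2.16e-04). The 10 macrophage and dendritic cell markers, most of whose counts were Itgax, summed to 388 to 541 CPM in B220+ and 257 to 329.8 CPM in B220− libraries, and 1 of 6 tested was called by edgeR, Lyz2, lower. Itgax itself was higher in each B220+ library than in any B220− library (431 ± 78.5 CPM in B220+, 278 ± 42.5 CPM in B220−, edgeR adjusted p = 0.0554) and was called with the replicate block (1.99e-06) and by DESeq2 (6.35e-06). The part of these other cell types in the levels described here was not tested.

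CD5 and CD6 are related proteins with scavenger receptor cysteine-rich domains. CD5 dampens receptor signalling in thymocytes and T cells, and CD6 binds the adhesion molecule ALCAM and recruits adaptors to the receptor. CD2 is an adhesion receptor for CD48 in the mouse, and Thy1 is a lipid-anchored glycoprotein carried by nearly every mouse T cell outside the epithelium. CD28 gives the classical second signal after binding CD80 or CD86, and ICOS, its relative, is induced on activated cells and binds ICOSL. In the mouse gut, natural intraepithelial lymphocytes that carry CD8αα are known to lack or to carry little of several of these proteins, whereas induced intraepithelial lymphocytes, which carry CD4 or CD8αβ, keep them.

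All 6 genes were lower in B220+ than in B220− cells, with mean levels between 4.30% (Cd5) and 30.5% (Cd2) of the B220− mean. For every one of them the 3 B220+ libraries lay below the 3 B220− libraries, as for 13.9% of all genes tested. All 6 were also among the genes called lower at an adjusted p under 0.05, as were 5.56% of all genes tested, except that Cd5 missed that threshold when B220+ replicate 2 was left out. Since the genes were chosen on this contrast, nothing follows from these counts. Each library pools many cells, so fewer cells carrying an mRNA and less of it per cell cannot be told apart.

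**Figure D1:**
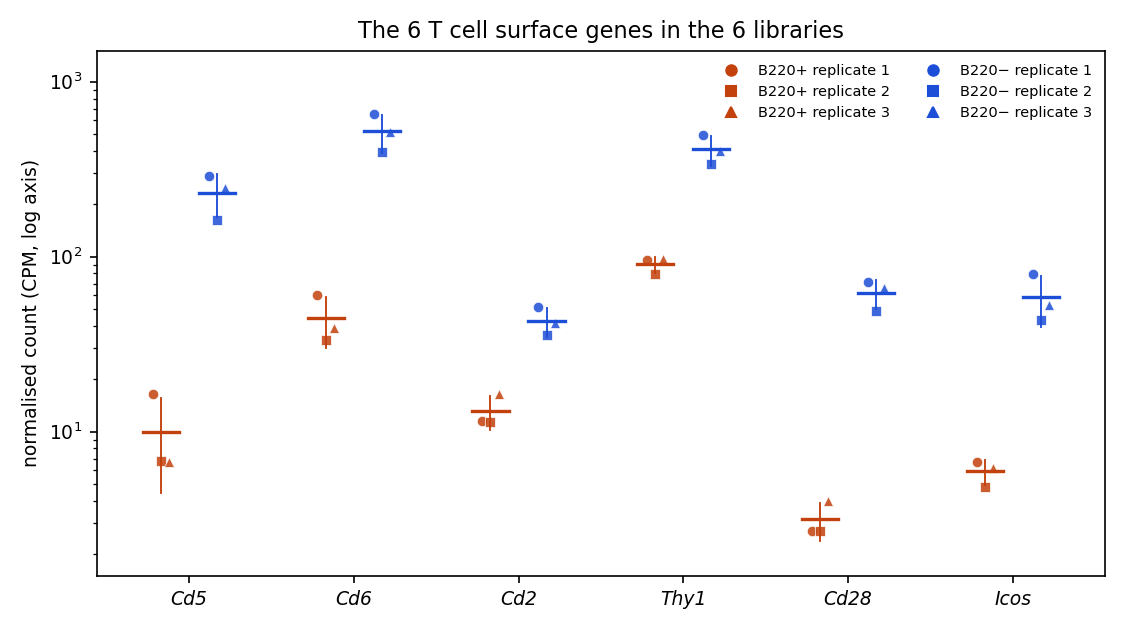
Normalised counts (CPM, log axis) of the 6 genes in the 3 B220+ libraries (orange, left of each pair) and the 3 B220− libraries (blue, right). Points are libraries, with a symbol for each replicate number, horizontal bars are means and vertical bars are SD. The groups do not overlap for any of the 6 genes, and the gap is widest for Cd5 (9.97 and 232 CPM) and narrowest for Cd2 (13.1 and 42.9 CPM).

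The pair of inhibitory and adaptor-recruiting receptors stood as follows. Cd5 (ENSMUSG00000024669, mm10 chromosome 19, 10717116 to 10739002, minus strand) had 16.4, 6.82 and 6.72 CPM in B220+ replicates 1, 2 and 3, against 287, 161 and 247 CPM in B220− replicates 1, 2 and 3. The B220+ libraries disagreed more for Cd5 than for the other 5 genes, with a coefficient of variation of 55.6% and replicate 1 high. The log2 fold change of Cd5 was −4.63 (SE 0.495), a level 24.7-fold lower in B220+ cells, and 34.1-fold lower without B220+ replicate 1.

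Cd6 (ENSMUSG00000024670, mm10 chromosome 19, 10789341 to 10830058, minus strand) lies next to Cd5. It had 60.5, 33.4 and 39.2 CPM in B220+ replicates 1 to 3, against 649, 393 and 517 CPM in B220− replicates 1 to 3. Cd6 averaged 44.4 ± 14.2 CPM in B220+ libraries and 519.8 ± 128 CPM in B220− libraries (SD, n = 3 each). The log2 fold change was −3.57 (SE 0.340), or 11.9-fold. As for Cd5, B220+ replicate 1 was the highest of its group.

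The RefSeq promoter table (build GRCm38.p6) held 1 of the 6 genes, Cd5. Its 250 bases upstream of the start annotated there (chr19:10738975-10739224, minus strand, read 5′ to 3′ along the gene) are shown, as no other member was held. That start lies inside the Cd5 coordinates given above, so the last bases, from 10739002 to 10738975, belong to that gene model. The 250 bases were searched on both strands for 5 short motifs of factors that act on lymphocyte genes. No match overlapped another, and matches are in capitals.
Cd5 upstream: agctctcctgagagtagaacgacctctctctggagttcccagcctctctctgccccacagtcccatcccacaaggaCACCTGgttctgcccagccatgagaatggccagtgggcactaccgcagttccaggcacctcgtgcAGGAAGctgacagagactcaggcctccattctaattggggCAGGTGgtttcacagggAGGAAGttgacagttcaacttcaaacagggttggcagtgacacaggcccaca
The ETS core AGGAAG occurred 2 times, beginning 109 and 52 bases before the start, and the E-box CAGGTG 2 times, beginning 174 bases before it on the opposite strand (CACCTG) and 69 bases before it. Of all 32851 promoter windows of this length in the table, 29.5% hold the first and 17.2% the second. The RUNX motif TGTGGT, the GATA motif AGATAA and the TCF/LEF motif CTTTGA were not among these letters, and 14%, 9.99% and 13.8% of all windows hold them. A match is a run of letters and not a measured binding site.

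The adhesion receptor and the lipid-anchored glycoprotein were lower by less. Cd2 (ENSMUSG00000027863, mm10 chromosome 3, 101275899 to 101287939, minus strand) had 11.5, 11.3 and 16.4 CPM in B220+ replicates 1 to 3, against 51.6, 35.5 and 41.6 CPM in B220− replicates 1 to 3. Here B220+ replicate 3, not replicate 1, was the highest of its group. With a log2 fold change of −1.73 (SE 0.182), or 3.32-fold, Cd2 had the smallest difference of the 6.

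Thy1 (ENSMUSG00000032011, mm10 chromosome 9, 44043384 to 44048579, plus strand) had 95.4, 79.3 and 96.4 CPM in B220+ replicates 1 to 3, against 495, 336 and 398 CPM in B220− replicates 1 to 3. It averaged 90.4 ± 9.59 CPM in B220+ libraries and 409.9 ± 80.03 CPM in B220− libraries (SD, n = 3 each). Of the 6 genes it varied least within the B220+ group (coefficient of variation 10.6%). The log2 fold change was −2.19 (SE 0.154), or 4.55-fold.

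The costimulatory receptors of the CD28 family were lower by 20.2-fold (Cd28) and 10.2-fold (Icos) in B220+ cells. Cd28 (ENSMUSG00000026012, mm10 chromosome 1, 60716800 to 60773359, plus strand) had 2.71, 2.69 and 4.03 CPM in B220+ replicates 1 to 3, against 71.3, 48.7 and 65.9 CPM in B220− replicates 1 to 3. The B220+ values rest on 32, 107 and 57 counts, and the count of 32 has a 95% exact Poisson interval of 21.9 to 45.2, or 1.86 to 3.83 CPM, which covers counting error only. The log2 fold change was −4.34 (SE 0.199), or 20.2-fold, so Cd28 stood close to Cd5 in size and had a smaller error.

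Icos (ENSMUSG00000026009, mm10 chromosome 1, 60977927 to 61000320, plus strand) had 6.70, 4.83 and 6.22 CPM in B220+ replicates 1 to 3, against 79.6, 43.1 and 52.7 CPM in B220− replicates 1 to 3. Its B220− libraries varied most of the 6 genes (coefficient of variation 32.3%), with replicate 1 high. The log2 fold change was −3.36 (SE 0.297), or 10.2-fold.

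Among the 14722 genes tested, ordered from the lowest fold change, Cd5 was number 32, Cd28 40, Cd6 62, Icos 70, Thy1 162 and Cd2 223. In the B220+ group replicate 2 was the lowest library for 5 of 6 genes, and the highest was replicate 1 for Cd5, Cd6 and Icos and replicate 3 for Cd2, Thy1 and Cd28. In the B220− group replicate 1 was the highest and replicate 2 the lowest for 6 of 6 genes.

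Levels of different genes can be set side by side only per length of exon. In B220+ cells the mean levels in CPM per kilobase were 30.2 for Thy1, 7.504 for Cd2, 5.57 for Cd6, 2.02 for Cd5, 1.73 for Icos and 0.514 for Cd28. The ranges over the B220+ libraries overlapped between Cd2 (6.51 to 9.43) and Cd6 (4.197 to 7.59) and between Cd5 (1.36 to 3.32) and Icos (1.41 to 1.95), and not between the other neighbours in the order. In B220− cells the mean levels in CPM per kilobase were 137 for Thy1, 65.2 for Cd6, 47.0 for Cd5, 24.6 for Cd2, 17.05 for Icos and 10.1 for Cd28, an order kept in each of the 3 libraries. There Cd6 (49.4 to 81.5) overlapped Cd5 (32.7 to 58.2), and Cd2 (20.4 to 29.6) overlapped Icos (12.6 to 23.2).

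**Figure D2:**
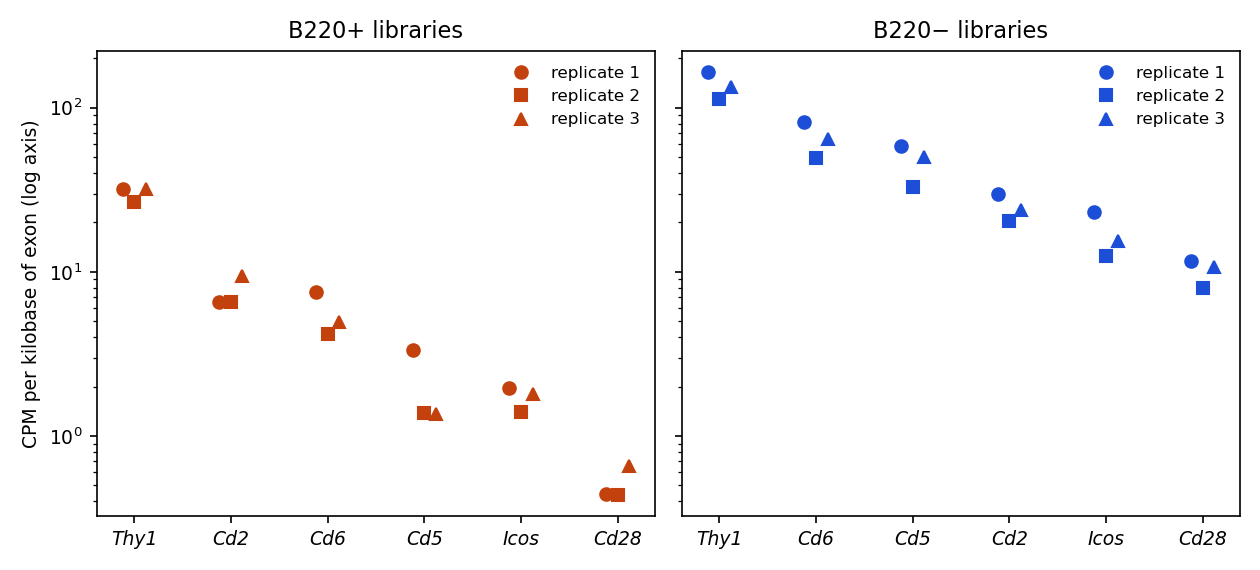
Levels per kilobase of exon (CPM per kilobase, log axis) of the 6 genes in the 3 B220+ libraries (left panel) and the 3 B220− libraries (right panel), each ordered by its group mean. Points are libraries. Thy1 leads and Cd28 is last in both groups, at 30.2 and 0.514 in B220+ and at 137 and 10.1 in B220− cells, while Cd2 stands above Cd6 and Cd5 in B220+ and below both in B220− cells by group mean.

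Because all 6 were lower by different amounts, their proportions to each other differed between the groups. Of the 15 ratios between pairs of these genes, 13 did not overlap between the groups. Ratios between other genes were not counted, so no background share stands beside this number. The 6 genes were chosen on this contrast, and nothing follows from the count. The Cd2 to Cd28 count ratio was 4.22, 4.21 and 4.07 in the B220+ libraries, against 0.723, 0.729 and 0.631 in the B220− libraries. This ratio varied little within each group. The Cd28 to Icos ratio was 0.405, 0.557 and 0.648 in the B220+ libraries, against 0.896, 1.13 and 1.25 in the B220− libraries. The Cd5 to Cd6 ratio was 0.271, 0.204 and 0.171 in B220+ libraries, against 0.442, 0.410 and 0.479 in B220− libraries. Each of these pairs lies on 1 chromosome, with another tested gene between. The mean B220+ ratio was 0.491 of the mean B220− ratio for Cd28 to Icos and 0.486 for Cd5 to Cd6. For Cd5 to Icos, on different chromosomes, it was 0.410, and over all 15 ratios it ran from 0.152 (Cd5 to Cd2) to 6.00 (Cd2 to Cd28). The part of location in these ratios was not tested. The ratios that overlapped were Cd5 to Cd28 (1.67 to 6.03 in B220+ and 3.31 to 4.03 in B220−) and Cd6 to Icos (6.30 to 9.03 in B220+ and 8.16 to 9.80 in B220−).

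The coreceptor genes Cd4 and Cd8b1, which mark induced intraepithelial lymphocytes, were lower alongside these receptors (edgeR adjusted p = 3.79e-04 and 0.00447). Cd8a, the coreceptor chain that both CD8αα and CD8αβ contain, was higher (2810.3 ± 132 CPM in B220+ libraries, 2184 ± 40.2 CPM in B220− libraries, edgeR adjusted p = 0.00779, but 0.0537 without B220− replicate 3). Cd4 had 8.23, 6.67 and 7.99 CPM in B220+ replicates 1 to 3, against 215, 125 and 190.3 CPM in B220− replicates 1 to 3. Cd8b1 had 29.1, 19.4 and 25.04 CPM in B220+ replicates, against 288, 164 and 194 CPM in B220− replicates. Like the 6 receptors, both were highest in replicate 1 and lowest in replicate 2 of the B220− group. Set against Cd4 in the same library, Cd28 overlapped between the groups, at 0.330, 0.404 and 0.504 counts per Cd4 count in B220+ libraries and 0.331, 0.391 and 0.346 in B220− libraries. Cd5 per Cd4 count likewise overlapped, at 0.841 to 1.99 in B220+ and 1.29 to 1.33 in B220− libraries. Per Cd8b1 count both were lower in every B220+ library, Cd28 at 0.0933 to 0.161 in B220+ and 0.248 to 0.340 in B220− libraries and Cd5 at 0.268 to 0.563 in B220+ and 0.982 to 1.28 in B220− libraries. Icos per Cd8b1 count was 0.230, 0.250 and 0.249 in B220+ libraries and 0.276, 0.263 and 0.272 in B220− libraries, a small gap without overlap. Per Cd4 count Icos was higher in B220+ libraries, at 0.725 to 0.814 in B220+ and 0.277 to 0.370 in B220− libraries.

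Cd6, Cd2 and Thy1, like Icos, did not overlap between the groups relative to either coreceptor. Cd6 was higher per Cd4 count (4.90 to 7.35 in B220+ and 2.72 to 3.15 in B220− libraries) and lower per Cd8b1 count (1.57 to 2.08 in B220+ and 2.26 to 2.67 in B220− libraries). Thy1 had 11.6, 11.9 and 12.1 counts per Cd4 count in B220+ libraries, against 2.30, 2.69 and 2.09 in B220− libraries. Cd2 had 1.39, 1.70 and 2.05 counts per Cd4 count in B220+ libraries, against 0.239, 0.285 and 0.219 in B220− libraries. Relative to Cd8b1 Thy1 and Cd2 were higher in B220+ libraries too, with Thy1 at 3.28 to 4.10 in B220+ and 1.72 to 2.06 in B220− libraries. How far the share of CD4+ or CD8αβ+ cells sets the levels of the 6 receptors was not tested.

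**Figure D3:**
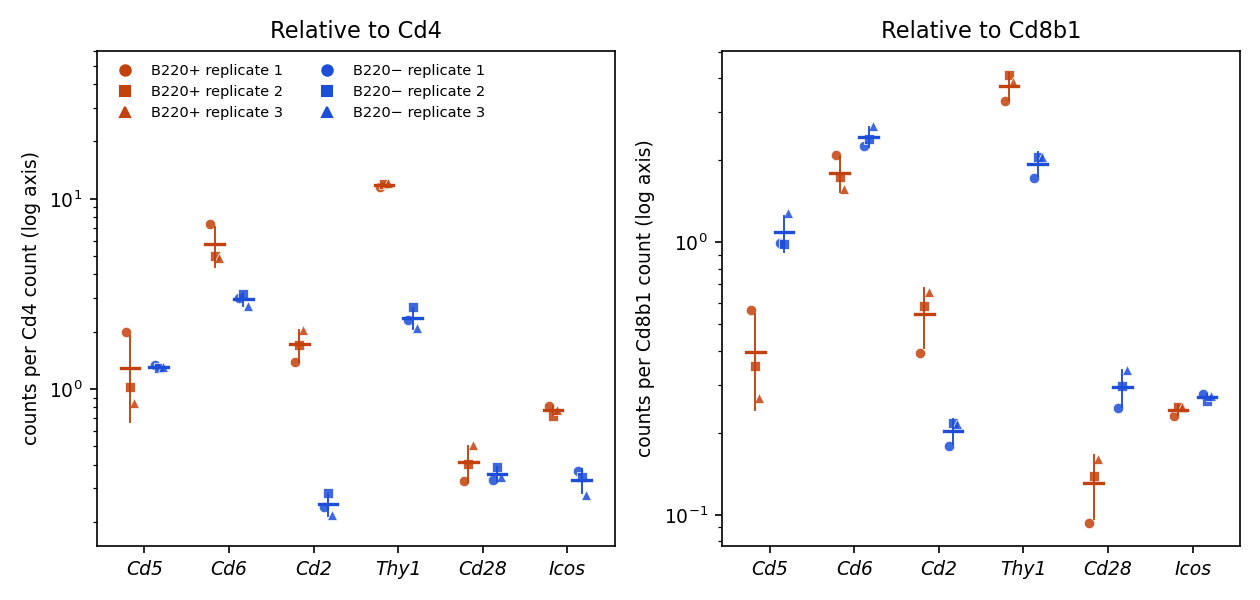
Counts of each of the 6 genes divided by the Cd4 count (left panel) or the Cd8b1 count (right panel) of the same library, on log axes. B220+ libraries are orange and left of each pair, B220− libraries blue and right, with means and SD as bars. Cd28 and Cd5 overlap between the groups in the left panel, whereas Thy1 lies at 11.6 to 12.1 in B220+ and at 2.09 to 2.69 in B220− libraries.

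For each receptor the 3 genes with the most similar profile were sought among all genes tested, by the root mean square difference of log2 CPM, centred over the 6 libraries. The difference between the groups makes up most of any such profile, and this is a description with no test. For Icos the most similar gene was Cd8b1, at a difference of 0.0821 log2 units over 6 libraries, the smallest of any pair found. The next for Icos were Pde11a (0.211) and Gm8369 (0.219). For Thy1 it was Itgal, the αL chain of the integrin LFA-1, at 0.0959. Itgal had 75.3, 64.2 and 73.4 CPM in B220+ replicates, against 332, 235 and 308 CPM in B220− replicates. Ms4a4b (0.137) and Synj2 (0.143) followed.

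For Cd2 the most similar genes were C230096K16Rik (0.102) and Klf3 (0.105), which overlap on 1 strand and can share reads, and Slamf6 (0.131), a relative of CD2. Klf3, a Krüppel-like transcription factor, had 13.5, 16.1 and 19.4 CPM in B220+ replicates, against 65.9, 42.9 and 56.8 CPM in B220− replicates. For Cd6 they were Rbm24 (0.146), a gene at 0 counts in 2 of the B220+ libraries, then Ubash3a (0.215) and S1pr1 (0.218). Ubash3a encodes a suppressor of T cell receptor signalling and S1pr1 the sphingosine receptor by which lymphocytes leave tissue. For Cd28 they were A630023P12Rik (0.194), Tmem176b (0.210) and Cd4 (0.217). For Cd5 they were A430093F15Rik (0.342), Tnfrsf25 (0.350) and Cd4 (0.378). The log2 CPM used here include a prior count of 2, which shrinks the differences of genes with few counts. Such genes can therefore match a receptor whose fold change differs. Rbm24 had a log2 fold change of −6.21, against −3.57 for Cd6. For A630023P12Rik it was −5.55, against −4.34 for Cd28, and for Tnfrsf25 −5.42, against −4.63 for Cd5.

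The 6 genes lie on 4 chromosomes, and the 5 tested genes on each side of each of them were examined next. Of these 42 genes 12 were called by edgeR's quasi-likelihood test with Benjamini-Hochberg adjustment, 5 higher and 7 lower in B220+ cells, against 11.1% of all genes tested (5.58% higher and 5.56% lower). Their median log2 fold change was 0.08, against −0.0074 over all genes tested.

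Between Cd5 and Cd6 lies A430093F15Rik, annotated as a processed transcript on the opposite strand (chromosome 19, 10740947 to 10786043, plus strand), beginning 1.95 kilobases from the 5′ end of Cd5. It had 2.63, 0.881 and 1.56 CPM in B220+ replicates 1 to 3, against 38.0, 20.5 and 29.6 CPM in B220− replicates 1 to 3. As for Cd5, replicate 1 was the highest in both groups and replicate 2 the lowest of the B220− group. It was 20.1-fold lower (log2 fold change −4.33, SE 0.435, edgeR adjusted p = 0.00238). Beyond Cd6, Slc15a3, a peptide and histidine transporter of endolysosomes, was lower at 0.861 ± 0.490 in B220+ and 2.76 ± 0.375 CPM in B220− cells (edgeR adjusted p = 0.0128, or 0.062 without B220+ replicate 2). Tmem132a, which overlaps Slc15a3 and cannot be told apart from it where they share sequence, was under 1 CPM in both groups and called lower (edgeR adjusted p = 0.00704), but failed the low-count filter without B220− replicate 1. On the far side of Cd5, Vps37c, Ddb1, Tkfc, Cyb561a3 and Gm50205 were not called, with log2 fold changes of −0.21 to 0.20.

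Between Cd28 and Icos lies Ctla4, the inhibitory counterpart of CD28, with 121, 99.3 and 121 CPM in B220+ replicates 1 to 3, against 352, 198 and 265 CPM in B220− replicates 1 to 3. It was 2.395-fold lower (log2 fold change −1.26, SE 0.237, edgeR adjusted p = 0.0333), but missed the threshold in 4 of 6 leave-one-out fits, which omit 1 library each (adjusted p 0.0946 without B220− replicate 3 and 0.109 to 0.114 without any 1 B220+ library). Its difference was smaller than those of Cd28 and Icos on either side of it. The next tested genes outward were Eif4a-ps4, not called, and Nrp2, a neuropilin 1.70 megabases away, called higher (50.5 ± 5.11 CPM in B220+ cells, 34.1 ± 4.62 CPM in B220− cells, edgeR adjusted p = 0.00458).

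Around Cd2 the called genes went the other way. Cd101, an immunoglobulin-like receptor of regulatory and resident T cells, rose 1.51-fold (101.2 ± 2.51 in B220+ and 66.9 ± 12.1 CPM in B220− cells, edgeR adjusted p = 0.00510). Igsf3, of the immunoglobulin superfamily, had 35.0, 35.8 and 31.0 CPM in B220+ replicates, against 9.75, 17.6 and 16.2 CPM in B220− replicates (log2 fold change 1.24, SE 0.197, edgeR adjusted p = 0.00493). Slc22a15, an organic ion transporter, rose as well (log2 fold change 0.73, edgeR adjusted p = 0.00954, but 0.0512 without B220+ replicate 2). Beside Thy1, the long noncoding RNA Gm39323, on the opposite strand and 2.33 kilobases from it, fell 8.52-fold to 0.495 ± 0.282 CPM in B220+, against 4.86 ± 1.904 CPM in B220− cells (edgeR adjusted p = 3.34e-04). Nectin1, an adhesion molecule, and Arhgef12, a guanine nucleotide exchange factor, were also called lower, at −2.95 and −0.67 on the log2 scale. They lie 211 and 936 kilobases from Thy1. Nectin1 rests on few counts, 0, 7 and 4 in B220+ replicates and 27, 21 and 15 in B220− replicates. Mcam, an adhesion molecule, was called higher at 248 and 119 CPM in B220+ and B220− cells (edgeR adjusted p = 0.0197). It missed the threshold with the replicate block (adjusted p = 0.135), without B220− replicate 3 (0.0575) and without any 1 B220+ library (0.0643 to 0.0831).

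**Figure D4:**
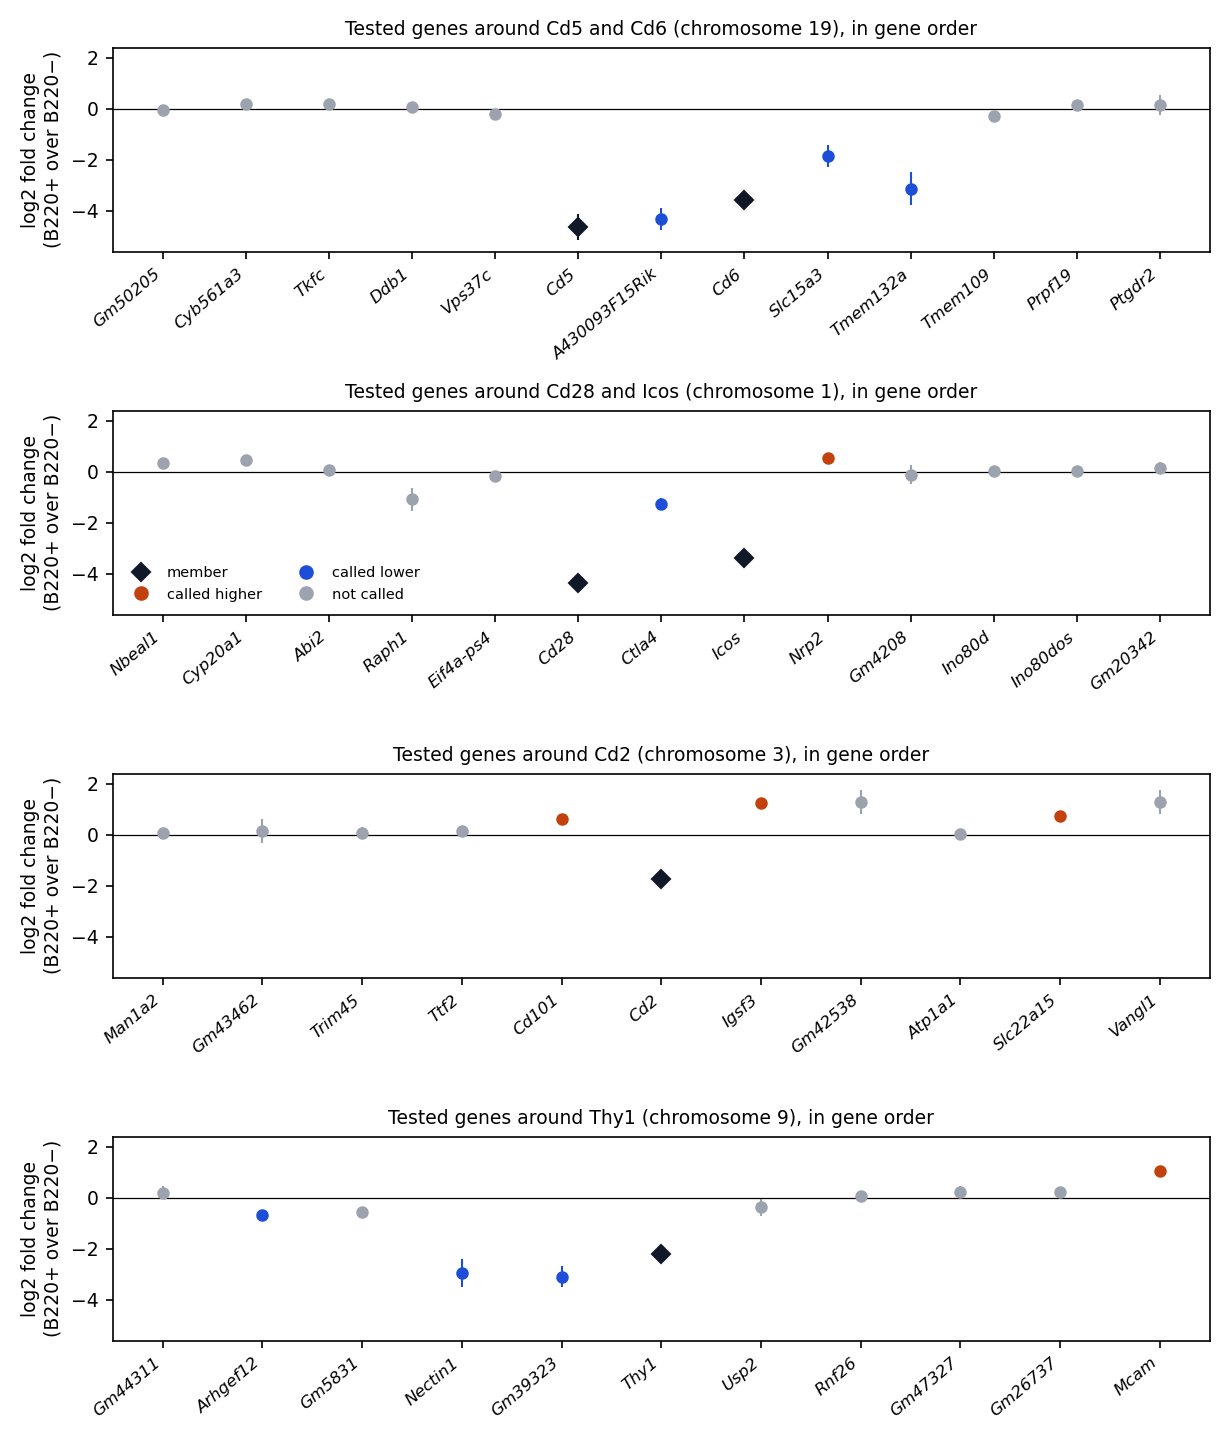
Log2 fold change (B220+ over B220−, error bars SE) of the 6 genes (black diamonds) and of the tested genes around them in order along the chromosome, spaced evenly. Orange, blue and grey circles are genes called higher, called lower and not called by edgeR. A430093F15Rik (−4.33) lies between Cd5 and Cd6 and Ctla4 (−1.26) between Cd28 and Icos, while the called neighbours of Cd2 are all higher.

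Of the genes for ligands of the 6 receptors, 8 of 9 were tested, and 1 was called higher and 1 lower by edgeR (median log2 fold change −0.07). Over all genes tested, the background for this and each list below, 5.58% were called higher and 5.56% lower (11.1% in either direction). Cd48 and Alcam, ligand genes of CD2 and CD6, were not called, and Cdcp1, another CD6 ligand gene, was not tested because of its low counts. Cd48 had 205.5 ± 9.45 CPM in B220+ libraries and 222 ± 21.7 CPM in B220− libraries (log2 fold change −0.11, SE 0.078, edgeR adjusted p = 0.451), and Alcam had 1.52 ± 0.157 and 2.41 ± 0.320 CPM (adjusted p = 0.177). Of the CD28 ligands, Cd86 fell to 1.09 ± 0.326 CPM in B220+, against 3.74 ± 1.29 CPM in B220− cells (3.45-fold, edgeR adjusted p = 0.00388), and Cd80 had 5.86 ± 1.59 and 5.24 ± 1.08 CPM (adjusted p = 0.818). Itgav, an integrin chain that pairs with Itgb3 in a receptor for Thy1, rose 1.48-fold to 123 ± 9.33 CPM in B220+, against 82.9 ± 7.65 CPM in B220− cells (edgeR adjusted p = 7.87e-04). Itgb3 had 38.7 ± 7.65 CPM in B220+ and 46.6 ± 7.54 CPM in B220− libraries (log2 fold change −0.28). It was not called by edgeR (adjusted p = 0.397), but was called lower with the replicate block (0.0422).

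Icosl, the ligand gene of ICOS, had 35.5, 50.1 and 42.9 CPM in B220+ replicates 1 to 3, against 14.7, 30.9 and 23.6 CPM in B220− replicates 1 to 3. The groups did not overlap, and replicate 1 was lowest and replicate 2 highest in both. It was not called by edgeR (log2 fold change 0.91, SE 0.303, adjusted p = 0.160). The replicate block gave an edgeR adjusted p of 4.56e-06. In the same block 4 of the 8 ligand genes were called, 2 in each direction. Epcam, an epithelial marker, had 68.7, 81.0 and 76.3 CPM in B220+ and 19.99, 49.0 and 38.8 CPM in B220− replicates, the same order of replicates, and its part in the Icosl values was not tested.

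The other receptors of the CD28 family were lower with Cd28 and Icos. Of 3 tested, 3 were called lower (median log2 fold change −1.26), against 5.56% of all genes tested. Btla, an inhibitory receptor, had 0.679, 0.932 and 1.34 CPM in B220+ replicates, against 6.57, 6.35 and 6.73 CPM in B220− replicates (6.61-fold lower, edgeR adjusted p = 2.91e-05). Pdcd1, which encodes PD-1, fell to 5.30 ± 0.212 CPM in B220+, against 11.9 ± 1.4003 CPM in B220− cells (edgeR adjusted p = 3.41e-04). Ctla4, described above with its locus, was the other.

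In the CD2 and SLAM family, 7 of 9 genes in the table were tested besides Cd2, of which 5 were called lower and 1 higher (median log2 fold change −0.42). Slamf1 had 2.55, 3.22 and 4.46 CPM in B220+ replicates, against 33.5, 22.6 and 30.0 CPM in B220− replicates, a larger difference than that of Cd2 (log2 fold change −3.07, SE 0.203, edgeR adjusted p = 6.40e-06). Slamf6 fell to 7.78 ± 1.86 CPM in B220+, against 22.5 ± 2.34 CPM in B220− cells (edgeR adjusted p = 5.59e-05). Slamf7, Ly9 and Cd84 fell by 0.59, 0.42 and 0.32 on the log2 scale, and Cd84 lost the call without B220+ replicate 2 (edgeR adjusted p = 0.0685). Cd244a, the receptor 2B4 that binds CD48, rose 1.53-fold to 573 ± 42.7 CPM in B220+, against 375 ± 30.6 CPM in B220− cells (edgeR adjusted p = 3.48e-04). Cd244a and Ly9 overlap on opposite strands, and reads in the shared stretch cannot be assigned to either.

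Of 10 other genes with scavenger receptor cysteine-rich domains 5 were tested, and 1 was called, lower, or 2 without B220− replicate 2 (median log2 fold change −0.10). This was Cd163l1, a marker of interleukin-17-producing γδ T cells in the mouse, with 1, 2 and 4 counts in B220+ replicates and 60, 45 and 24 counts in B220− replicates (0.139 ± 0.126 and 2.63 ± 0.571 CPM, edgeR adjusted p = 1.80e-04). Cd5l, Cd163, Marco, Msr1 and Scara5 did not pass the filter on low counts.

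Genes that act inside the cell downstream of CD28 and ICOS differed little in size. Of 19 tested, 2 were called higher and 5 lower by edgeR (median log2 fold change −0.02), all between −0.65 and 0.64, and 4 were called without B220+ replicate 2. Grap2, the adaptor GADS, fell to 341 ± 28.0 CPM in B220+, against 537 ± 50.7 CPM in B220− cells (edgeR adjusted p = 3.23e-04). Malt1, a paracaspase of NF-κB activation, fell by 0.30 and the kinase Prkcq (protein kinase C θ) by 0.34 on the log2 scale. Pik3r1 and Pik3r2, regulatory subunits of phosphoinositide 3-kinase, rose by 0.37 and 0.64. Prkcq and Pik3r2 missed the threshold in 2 and 5 of 6 leave-one-out fits by edgeR. For Prkcq these were without B220+ replicate 1 (adjusted p = 0.0692) and replicate 2 (0.0505). For Pik3r2 they were all but the fit without B220− replicate 2 (edgeR adjusted p 0.0693 to 0.141). Lck, the kinase that starts receptor signalling, had 892 ± 22.4 and 942 ± 30.4 CPM in B220+ and B220− cells, and Carmil2, which links CD28 to NF-κB, had 252 ± 14.2 and 255 ± 19.8 CPM (edgeR adjusted p = 0.581 and 0.932).

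Among 8 partners of CD2 and Thy1, 2 were called lower, or 4 with the replicate block and 1 without B220− replicate 3 (median log2 fold change −0.18). Sh3kbp1, an adaptor related to CD2AP that binds CBL proteins, had 94.3, 80.5 and 84.4 CPM in B220+ replicates, against 295, 214 and 237 CPM in B220− replicates (2.89-fold lower, edgeR adjusted p = 3.79e-05). Pstpip1, which binds the CD2 tail, fell by 0.29 on the log2 scale and lost the call without B220− replicate 3 (edgeR adjusted p = 0.0572). Cd2bp2, Fyn, Csk and Lck had log2 fold changes of −0.08 to −0.01 and were not called.

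Partners of CD5 and CD6 included genes called in both directions: of 16 tested, 5 were higher and 3 lower (median log2 fold change 0.03). The calls numbered 4 without B220− replicate 3, where 1 was higher and 3 lower, and 5 without any 1 of the B220+ libraries, where 2 were higher and 3 lower. The related genes Ubash3a and Ubash3b, whose products curb receptor signalling and interact with CBL proteins, moved in opposite directions. Ubash3a had 4.92, 4.33 and 3.82 CPM in B220+ replicates, against 71.1, 44.7 and 62.8 CPM in B220− replicates (13.7-fold lower, edgeR adjusted p = 9.01e-06). Ubash3b had 138, 148 and 119 CPM in B220+ replicates, against 67.2, 95.3 and 70.1 CPM in B220− replicates (1.74-fold higher, edgeR adjusted p = 0.0108). The other genes called lower were Grap2 and Camk2d, a calmodulin-dependent kinase (25.7 ± 0.261 and 38.0 ± 4.21 CPM in B220+ and B220− cells). Ptpn6 (the phosphatase SHP-1), Cblb (a ubiquitin ligase), Sh2d2a and Sdcbp (syntenin) rose by 0.47, 0.37, 0.28 and 0.27 on the log2 scale. Each of these 4 missed the threshold in 2 to 5 of 6 leave-one-out fits by edgeR. Ptpn6 and Sdcbp did so without B220− replicate 3 (adjusted p = 0.124 and 0.125) and without any 1 B220+ library (0.0663 to 0.122 and 0.0574 to 0.0884). Cblb did so without B220+ replicate 2 (0.0947) and B220− replicate 3 (0.0701), and Sh2d2a in all but the fit without B220+ replicate 2 (0.0578 to 0.183).

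**Figure D5:**
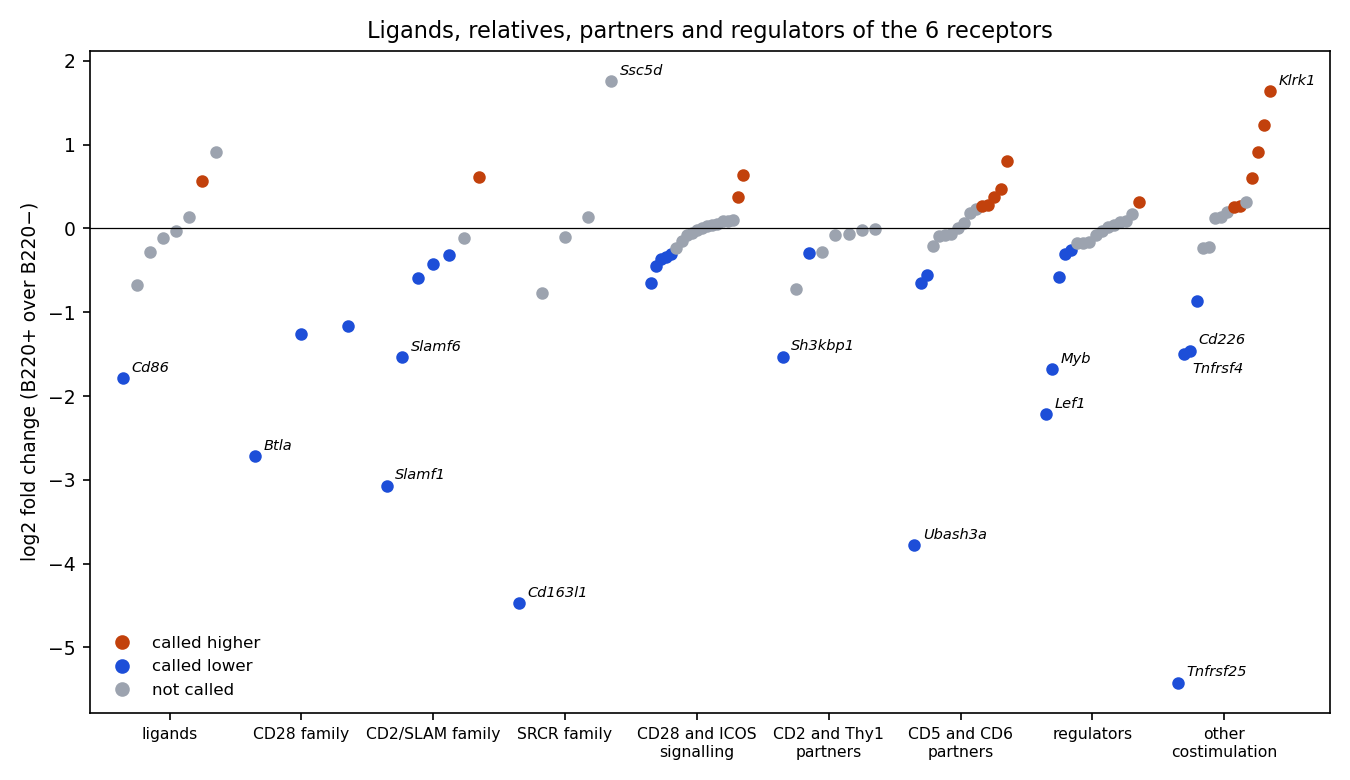
Log2 fold change (B220+ over B220−) of tested genes in 9 lists of ligands, relatives, partners and regulators of the 6 receptors and of other costimulatory receptors. Points are genes, coloured orange, blue or grey for called higher, called lower or not called by edgeR, and genes beyond 1.4 in either direction are named. The signalling genes of CD28 and ICOS lie between −0.65 and 0.64, and Ubash3a (−3.78) lies far below the other partners of CD5 and CD6.

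Among 16 regulators of transcription or mRNA decay linked to the 6 genes, 1 was called higher and 5 lower (median log2 fold change −0.12), and 3, all lower, without B220− replicate 3. Lef1, a TCF family factor of naive T cells, had 4.41, 5.41 and 5.73 CPM in B220+ replicates, against 28.3, 20.9 and 23.9 CPM in B220− replicates (4.65-fold lower, edgeR adjusted p = 2.72e-06). Its relative Tcf7 had 175, 257 and 289 CPM in B220+ replicates, against 259, 232 and 271 CPM in B220− replicates, and the groups overlapped (edgeR adjusted p = 0.873). Myb and Runx1 fell by 1.68 and 0.58 on the log2 scale. Ikzf1 and Nfatc2 fell by 0.31 and 0.26, each missing the threshold in 4 of 6 leave-one-out fits by edgeR. These were the fits without B220+ replicate 2 or 3 or B220− replicate 1 or 3 for Ikzf1 (adjusted p 0.0505 to 0.0690) and without any 1 B220+ library or B220− replicate 3 for Nfatc2 (0.0537 to 0.0735). Foxo1 rose by 0.31 and lost the call without B220− replicate 3 (edgeR adjusted p = 0.0550). Ets1 (1109 ± 69.5 and 1130.2 ± 43.0 CPM in B220+ and B220− cells) and Gata3 (55.3 ± 3.27 and 62.2 ± 7.33 CPM) were not called. Nor were Rc3h1 and Rc3h2, which encode the Roquin proteins known to destabilise Icos mRNA, with log2 fold changes of 0.08 and 0.02.

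Other costimulatory receptors did not share 1 direction. Of 16 tested, 6 were called higher and 4 lower (median log2 fold change 0.17). Tnfrsf25, the death receptor DR3, had 2, 3 and 1 counts in B220+ replicates and 75, 74 and 52 counts in B220− replicates (0.105 ± 0.056 and 4.26 ± 0.259 CPM, edgeR adjusted p = 4.65e-06). Cd226, the nectin-binding receptor DNAM-1, had 64.3, 70.5 and 69.7 CPM in B220+ replicates, against 221, 164 and 179 CPM in B220− replicates (2.75-fold lower, edgeR adjusted p = 8.76e-06). Tnfrsf4 (OX40) fell 2.84-fold and Cd44 1.83-fold. Cd7, a surface protein of T and natural killer cells, rose to 3476 ± 183 CPM in B220+, against 1847 ± 267 CPM in B220− cells (edgeR adjusted p = 1.05e-04). Klrk1 (NKG2D) had 28.3, 23.2 and 37.7 CPM in B220+ replicates, against 8.57, 11.6 and 8.04 CPM in B220− replicates (edgeR adjusted p = 0.00105). Tnfrsf9 (4-1BB) had 105, 86.2 and 90.3 CPM in B220+ replicates, against 29.3, 49.5 and 40.9 CPM in B220− replicates (edgeR adjusted p = 0.0113, 0.0525 without B220− replicate 3 and 0.135 with the replicate block). Cd101, Cd96 and Crtam rose by 0.60, 0.27 and 0.26 on the log2 scale, and Cd96 and Crtam missed the threshold in 4 and 3 of 6 leave-one-out fits. Cd96 did so without B220+ replicate 1 or 3 or B220− replicate 2 or 3 (edgeR adjusted p 0.0555 to 0.137), and Crtam without B220+ replicate 2 or 3 or B220− replicate 3 (0.103 to 0.139).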

How the data were processed

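The authors deposited 1 table of raw counts of reads per gene covering 6 libraries. The submitters' processing notes list featureCounts 1.6.3 and HISAT2 2.1.0, besides Trimmomatic 0.38, FastQC 0.11.7 and SAMtools 1.9, and the build mm10. Options, annotation release and strand setting were not given in the sources used here, so reads of overlapping genes on opposite strands cannot be told apart. None of the 6 receptor genes has such a partner. Partners on the other strand whose counts exceed 10% of the gene's own overlap these called genes: Cd244a, Ly9, Slamf7, Pik3r2, Ptpn6, Sdcbp, Lef1, Myb, Runx1, Foxo1, Tnfrsf9, Cd7, Slc15a3, Tmem132a and Arhgef12. The same holds for Cd3e, Carmil2, Gata3, Klf3, C230096K16Rik, Synj2, Tmem176b, Ddb1, Tkfc, Cyb561a3 and Gm50205. Of the gene models 98.73% had the coordinates of GENCODE release M21, from which exonic lengths were taken.

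Counts were tested with edgeR 4.0.16 in R 4.3.3: filterByExpr (minimum count 10, minimum total 15), trimmed-mean scaling, robust quasi-likelihood fit and F test with the group alone. Adjusted p-values are Benjamini-Hochberg over 14722 genes, called under 0.05 (1639 genes, 821 higher and 818 lower). Fold changes are B220+ over B220−, and their SE is the log2 fold change divided by the root of F. The test was checked on simulated counts. DESeq2 1.42.0, other scaling, no filter, the replicate block and leaving out each library were alternatives.

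The members and lists were chosen with earlier results of these data known. Genes named are the 6 members, every list gene and genomic neighbour called, direct ligands, partners or relatives of a member, and the 3 genes of most similar profile (log2 CPM with a prior count of 2). A few list genes are counted but not reported here by name. Libraries with the same replicate number in the titles deviated together from their group means (correlations over genes of 0.295, 0.246 and 0.272, against −0.203 to −0.0675 for other pairs). Deviations within a group cancel out, so positive values for some pairs force negative values for others. Because of the positive values, the numbers were treated as pairs in the replicate block. The main fit and all other alternatives used the group alone. No label states this pairing. Replicates were not copies of 1 another: chi-square over its degrees of freedom was 7.37 to 16.2 within groups. The RefSeq tables supplied the promoter sequence.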

Additional observations from a re-analysis of the deposited data

How the results depend on the processing

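The log2 fold changes of the 6 receptor genes kept their sign under each of the 10 alternatives. Leaving out 1 library gave −5.09 to −4.35 for Cd5, −4.51 to −4.18 for Cd28, −3.85 to −3.38 for Cd6, −3.54 to −3.06 for Icos, −2.31 to −2.02 for Thy1 and −1.91 to −1.57 for Cd2. With the replicate block, which pairs libraries by number, they were −4.58, −4.26, −3.56, −3.26, −2.17 and −1.70. The block raised the calls over all genes to 2569, the called ligand genes to 4 and the called partners of CD2 and Thy1 to 4. Without 1 library the calls over all genes ranged from 970 to 1789, other scavenger receptor cysteine-rich genes from 1 to 2, CD28 and ICOS signalling genes from 4 to 7, partners of CD2 and Thy1 from 1 to 3, partners of CD5 and CD6 from 4 to 7 and regulators from 3 to 6. Ligand genes and other CD28 family receptors each ranged from 2 to 3, the CD2 and SLAM family from 5 to 6. Other costimulatory receptors ranged from 7 to 10 and genomic neighbours from 8 to 13. The cause of these shifts was not tested. The fewest calls over all genes, 970 and 1029, came without B220+ replicate 2 and without B220− replicate 3. Of 63 called genes in the lists and neighbourhoods, the replicate block ended the calls of Tnfrsf9 and Mcam and no other. Testing without the filter ended that of Ctla4. Leaving out 1 library ended 2 to 18 of these calls. The number was 18 without B220− replicate 3, 15 without B220+ replicate 2 and 10 each without B220+ replicate 1 and without B220+ replicate 3. No fitted value changed direction under the 10 alternatives. Tmem132a could not be fitted without B220− replicate 1. Counts of 32 to 450 per B220+ library limit Cd28, Icos, Cd5 and Cd2 there.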
